A study of Arabidopsis thaliana with 9 samples.

Results

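Cytochrome P450 genes were examined in leaves of Arabidopsis thaliana on 9 ATH1 expression arrays (Affymetrix). The members were the probe sets, groups of short probes that together read 1 transcript, whose single listed gene carried a symbol made of CYP, a number, letters and a number. There were 22 such genes among 13513 probe sets with a single listed gene and 22810 probe sets in all. Of the 22, 18 belonged to the CYP71B subfamily, and the other 4 were CYP51G2, CYP78A9, CYP79A2 and CYP84A4. The RefSeq table of assembly TAIR10.1 gives names of this form to 251 genes and pseudogenes, so the 22 are a small and uneven sample of the family. Other P450 genes are not analysed here.

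Each of 3 groups had 3 arrays. The 32OE leaves came from plants in which a T-DNA insertion knocks out At1g55350, the gene of the membrane calpain DEK1, and which carry a transgene labelled ADEK1 calpain, overexpressing. The 32null leaves had the same knock-out and a transgene labelled ADEK1 calpain null. Col was wild-type Col-0, the background of both lines. All plants were sampled at growth stage 1.14, after 3 days of cold on plates, transfer to soil at 7 days, and short days at 21 °C with 6 plants to a pot. The labels name no promoter for the transgene, do not say what null stands for, and do not say whether replicates came from separate plants or how many transgenic lines were used. The knock-out, the transgene and its insertion cannot be told apart in the comparisons with Col, since both lines carry all of these and Col carries none.

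Cytochromes P450 are haem enzymes that insert 1 oxygen atom into a substrate, with electrons passed on from a reductase in the endoplasmic reticulum. Plants use them to make and break down hormones, sterols, lignin precursors, cuticle lipids and defence compounds. CYP71B is one of the large subfamilies in Arabidopsis. Its best known enzyme, CYP71B15 (PAD3), catalyses the last step to the phytoalexin camalexin and is not among the members, and the substrates of many of its other enzymes are not known.

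The leaf marker RCA, which encodes Rubisco activase, had signals of 4926 ± 363 in 32OE, 5618 ± 598 in 32null and 5277 ± 474 in Col (SD, n = 3 each). The root marker PYK10 lay between 9.96 and 112 in 32OE, between 15.97 and 63.9 in 32null and between 15.2 and 43.3 in Col. The light-harvesting gene LHCB4.3, the other leaf marker with a single-gene probe set, had 128 ± 28.8 in 32OE, 65.0 ± 8.90 in 32null and 69.6 ± 23.7 in Col. No flower, pollen or phloem marker sought had a probe set with a single listed gene. The annotation pairs DEK1 with none of the probe sets, and its transcript is not analysed here. The 32OE and 32null arrays numbered 1 stood apart from the other arrays of their lines. On the first principal component, which held 40.01% of the variance, they scored -9.37 and -9.62, against 14.7 to 34.5 for the other 4 arrays of the 2 lines and -33.2 to -19.2 for Col. The control probe sets for 25S rRNA read 160 on the 32OE array numbered 1 and 167 on the 32null array numbered 1, and between 208 and 384 on the other 7 arrays.

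All values below are MAS5 signals on a linear scale, with the same trimmed mean on every array. Fold changes are differences of group means of log2(signal + 3.63), which shrinks the changes of weakly detected genes. Testing was limited to probe sets that reached a signal of 17.6, the 40th percentile of the table, on at least 3 arrays. Of the 22 members, 9 passed and 13 did not, while 62.2% of all probe sets passed. All 9 that passed belong to CYP71B, and 7 of them reached that signal on all 9 arrays. CYP71B24 and CYP71B29 passed with 4 and 5 arrays. Signals of different probe sets are not compared with each other, because probes differ in affinity.

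With limma's moderated test and Benjamini-Hochberg adjustment over 14151 probe sets, none of the 9 tested members was called at an adjusted p under 0.05 in any of the 3 comparisons or by the F-test of the 3 groups. Of all tested probe sets, 1.61% were called for 32OE against Col, 0.0565% for 32null against Col, 0.523% for 32OE against 32null and 1.16% by the F-test. At an unadjusted p under 0.05, 4 members were higher in 32OE than in Col, where 9.31% of all probe sets were, and 4 were higher in 32null than in Col, where 9.53% were. CYP71B24, 1 of the 4 for 32OE, passed the filter only through arrays of the 2 lines, so counts and medians over the tested members are descriptions. No member was lower at that level in either comparison, where 8.83% and 7.92% of all probe sets were, and none differed between 32OE and 32null, where 10.6% of all probe sets did. By the F-test, 3 had an unadjusted p under 0.05, against 19.4% of all probe sets. The median log2 fold change of the 9 members was 0.30 for 32OE minus Col, 0.36 for 32null minus Col and 0.10 for 32OE minus 32null, beside medians of 0.01, 0.01 and -0.01 over all tested probe sets. The members' median for 32OE minus 32null was 0.26 without the 32OE array numbered 1, 0.063 without the 32null array numbered 2 and 0.019 without the 32null array numbered 3.

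**Figure D1:**
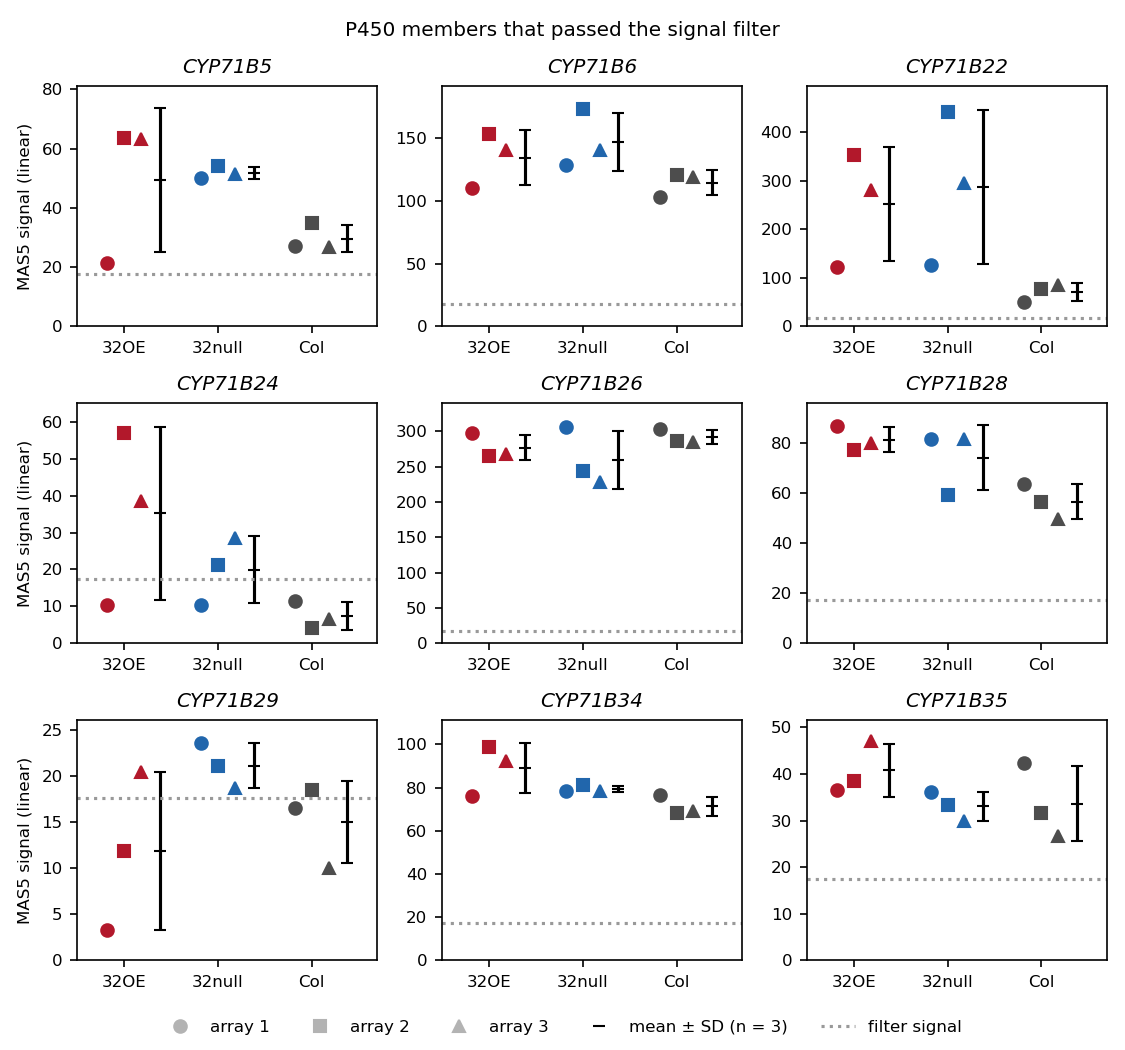
MAS5 signal (linear axis) of the 9 tested P450 members on each array of 32OE, 32null and Col, with the mean and SD of each group (n = 3) and the filter signal of 17.6 as a dotted line. In CYP71B22 all 6 arrays of the transgenic lines lie above the 3 Col arrays, with the arrays numbered 1 nearest to Col.

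CYP71B22 (AT3G26200) had a higher signal on every array of both lines than on any Col array. Its signals were 123, 352 and 280.3 on the 32OE arrays numbered 1, 2 and 3, and 126, 441 and 295 on the 32null arrays. On the Col arrays they were 49.98, 76.7 and 85.8. The arrays numbered 1 were the lowest of their group in all 3 groups. The means were 252 ± 117 in 32OE, 287 ± 158 in 32null and 70.8 ± 18.6 in Col. The log2 fold change was 1.68 (SE 0.44, 95% interval 0.73 to 2.64) for 32OE minus Col, with an unadjusted p of 0.00242 and limma's adjusted p = 0.0765. For 32null minus Col it was 1.83 (SE 0.44, 95% interval 0.87 to 2.78), with an unadjusted p of 0.00137 and limma's adjusted p = 0.107. Both differences missed the threshold, and both rest on the same 3 Col arrays. In leaf RNA of mixed cells, a different number of expressing cells and a different amount of RNA per cell cannot be told apart. The lines did not differ detectably from each other, at -0.14 with a 95% interval of -1.10 to 0.81.

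Whether CYP71B22 passed the threshold depended on which arrays were fitted and on how the fit was made. With every array and the replicate number as a block, limma's adjusted p was 0.000786 for 32OE minus Col and 0.00217 for 32null minus Col. A number is not labelled as a shared batch. With every array and array quality weights, limma's adjusted p was 0.0021 for 32OE minus Col and 0.0197 for 32null minus Col. In fits of only the 2 groups compared, with all their arrays, limma's adjusted p was 0.0491 for 32OE minus Col and 0.0397 for 32null minus Col. Without the 32OE array numbered 1, limma's adjusted p for 32OE minus Col was 0.0078 at a log2 fold change of 2.13. Without the 32null array numbered 1, limma's adjusted p for 32null minus Col was 0.0223 at 2.32. Leaving out 1 array at a time, adjusted p ran from 0.0078 to 0.304 for 32OE and from 0.0223 to 0.343 for 32null, and the fold change kept its sign. Without the arrays numbered 1 of all groups, 13.6% of all probe sets were called for 32OE minus Col and 7.93% for 32null minus Col, and the adjusted p of CYP71B22 was 0.000571 and 0.000622. In that setting 4 members were called for 32OE minus Col (CYP71B5, CYP71B22, CYP71B24 and CYP71B34) and 3 for 32null minus Col (CYP71B5, CYP71B22 and CYP71B24), all higher, and CYP71B24 is the member that passed the filter only through the lines. By the F-test 3 were called there, CYP71B24 among them, against 13.5% of all probe sets. With array quality weights, in which the 32OE and 32null arrays numbered 1 had the lowest weights at 0.386 and 0.517, 5 members were called for 32OE minus Col, 1 for 32null minus Col and 5 by the F-test. The shares of all probe sets called with those weights were 18.8%, 4.37% and 15.9%. The 5 were CYP71B5, CYP71B22, CYP71B24, CYP71B28 and CYP71B34 in both counts, and CYP71B24 entered them through a filter that only the lines passed. The part of the low 25S rRNA signal on the 32OE and 32null arrays numbered 1 in these results was not tested. The Col array numbered 1 had a 25S rRNA signal of 315.

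**Figure D2:**
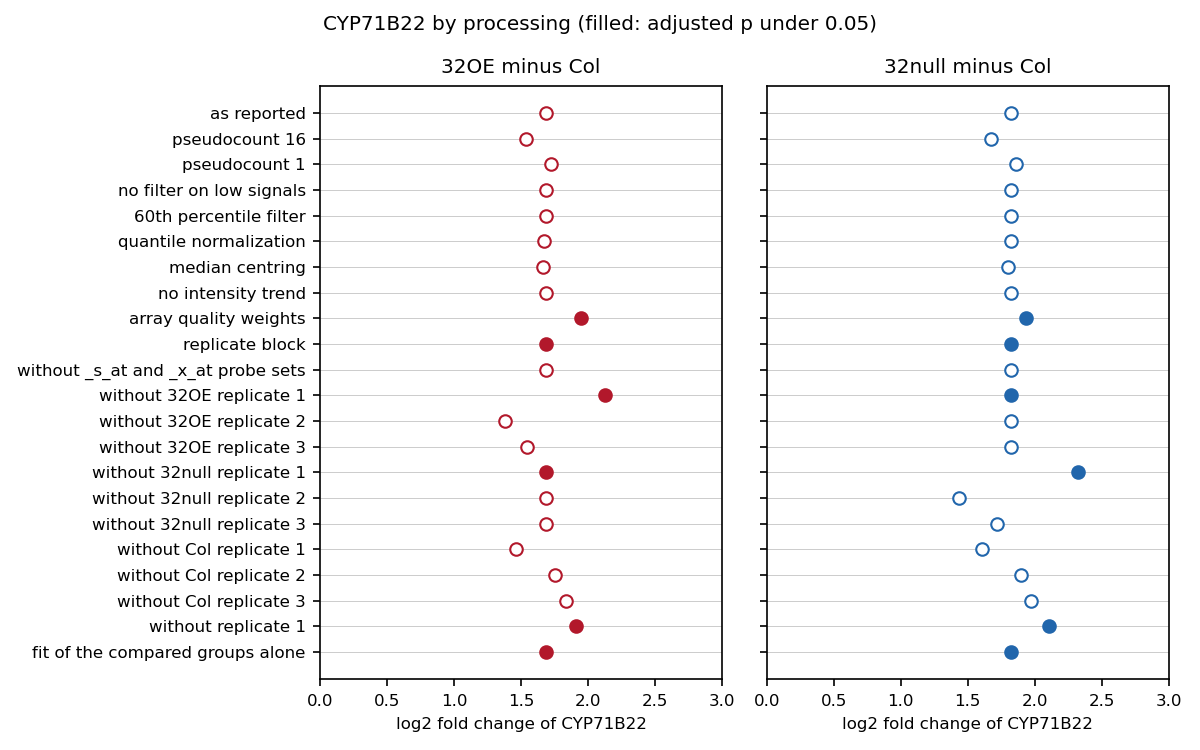
Log2 fold change of CYP71B22 for 32OE minus Col (left) and 32null minus Col (right) as reported and under each of 21 alternatives, filled where the adjusted p was under 0.05. The fold change lies between 1.38 and 2.13 on the left and between 1.43 and 2.32 on the right under the alternatives.

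CYP71B22 is part of a tandem run on chromosome 3. In the order of the RefSeq table, 11 of the members lie between CYP71B16 and CYP71B37, a stretch of 24 genes and pseudogenes of which 18 are P450 genes. Tandem copies can share sequence, and whether their probe sets read each other's transcripts was not tested. None of the 22 members was on a probe set of the types that the platform marks as able to read several transcripts. The members nearest to CYP71B22 in gene order were CYP71B21 directly before it, CYP71B23 directly after it, and CYP71B24, which follows CYP71B23 after 1 other P450 gene.

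CYP71B23 (AT3G26210) did not pass the filter, as only 2 arrays reached 17.6. Its signals were 8.96, 14.4 and 8.49 on the 32OE arrays numbered 1, 2 and 3, and 9.81, 50.5 and 23.2 on the 32null arrays. On the Col arrays they were 1.74, 1.57 and 0.873. All 6 arrays of the 2 lines were above all Col arrays, as in CYP71B22. The Col signals lie below the pseudocount and the 32OE signals below the filter, so no fold change is given. In a fit without the filter, neither 32OE minus Col (limma's adjusted p = 0.186) nor 32null minus Col (limma's adjusted p = 0.131) was called. Limma's unadjusted p values there were 0.00651 and 0.000214.

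CYP71B24 (AT3G26230) is named after its values were seen, because it was one of the 4 members with an unadjusted p under 0.05 for 32OE minus Col. It had 10.3, 56.8 and 38.4 on the 32OE arrays numbered 1, 2 and 3, and 10.4, 21.1 and 28.5 on the 32null arrays. The Col arrays had 11.4, 4.20 and 6.52. The arrays numbered 2 and 3 of both lines were above all Col arrays, whereas those numbered 1 lay within the Col range. It passed the filter only through arrays of the 2 lines, so its difference from Col is in part set by the filter and is given as a description. The log2 fold change was 1.63 for 32OE minus Col and 1.07 for 32null minus Col, neither called. CYP71B21, on the other side of CYP71B22, had signals of at most 1.04 on every array.

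Farther along the run lie CYP71B26, CYP71B34 and CYP71B35. CYP71B26 (AT3G26290) had 297, 266 and 269 on the 32OE arrays and 307, 243 and 229 on the 32null arrays, against 303, 287 and 285 on the Col arrays. Its groups overlapped, and its log2 fold change of -0.07 for 32OE minus Col had a 95% interval of -0.34 to 0.19. CYP71B34 (AT3G26300) had 76.0, 98.7 and 92.5 in 32OE and 78.6, 81.2 and 78.5 in 32null, against 76.4, 68.2 and 69.1 in Col. The 32null arrays were above all Col arrays by a narrow margin, while the 32OE array numbered 1 lay within the Col range. The log2 fold change was 0.30 for 32OE minus Col (95% interval 0.02 to 0.58, limma's adjusted p = 0.24) and 0.15 for 32null minus Col (95% interval -0.13 to 0.43).

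CYP71B35 (AT3G26310) was the 1 tested member whose 32OE and 32null arrays did not overlap, with 36.7, 38.4 and 47.2 in 32OE against 36.1, 33.3 and 29.8 in 32null. Of all tested probe sets, 6.26% were higher in 32OE without overlap. The gap was small, and the log2 fold change of 0.27 had a 95% interval of -0.14 to 0.68 (limma's adjusted p = 0.683). The Col arrays, at 42.5, 31.7 and 26.7, spanned most of both groups. CYP71B16, CYP71B25, CYP71B36 and CYP71B37 did not reach the filter signal on any array.

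**Figure D3:**
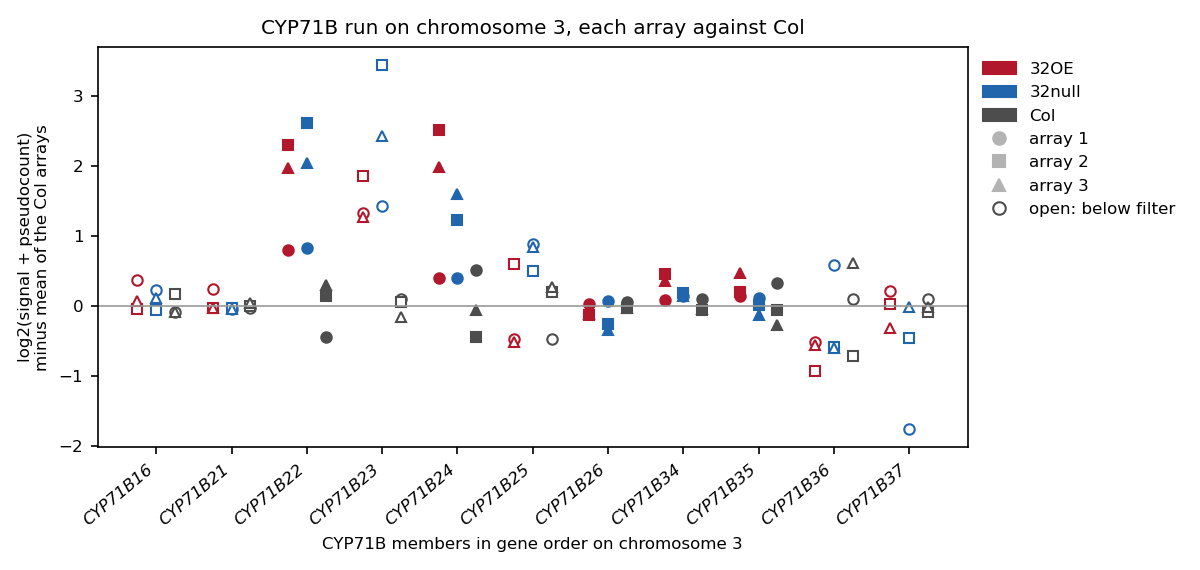
Members of the chromosome 3 run in gene order, each array's log2(signal + pseudocount) minus the mean of the Col arrays (filled symbols passed the filter, open ones did not). The arrays numbered 2 and 3 of 32OE and 32null lie above Col in CYP71B22, CYP71B23 and CYP71B24 and, by a smaller margin, in CYP71B34.

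A second group of CYP71B genes lies on chromosome 1, where CYP71B27, CYP71B28 and CYP71B29 occupy a stretch of 4 neighbouring P450 genes. CYP71B28 (AT1G13090) had 87.1, 77.2 and 80.3 on the 32OE arrays, all above the Col arrays at 63.6, 56.7 and 49.6. Of all tested probe sets, 12.1% were higher in 32OE than in Col without overlap, and 2 of the 9 members were, CYP71B22 and CYP71B28. CYP71B28 had a log2 fold change of 0.50 for 32OE minus Col (95% interval 0.17 to 0.84, unadjusted p = 0.00653, limma's adjusted p = 0.121). The 32null arrays had 81.8, 59.4 and 81.7, of which the array numbered 2 lay within the Col range. The log2 fold change for 32null minus Col was 0.36 (95% interval 0.03 to 0.70, limma's unadjusted p = 0.0351, limma's adjusted p = 0.252). The within-group spread of CYP71B28 in 32OE was small, with a mean of 81.5 ± 5.04, against 56.6 ± 6.98 in Col.

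CYP71B29 (AT1G13100) had 3.34, 11.9 and 20.4 in 32OE and 23.6, 21.1 and 18.6 in 32null, against 16.5, 18.5 and 10.0 in Col. It was the 1 tested member with a higher signal in all 32null arrays than in Col and a lower mean in 32OE than in Col, at signals near the filter. Without its 32null arrays CYP71B29 would not have passed the filter, so its differences between 32null and the other groups are given as descriptions. The log2 fold change was -0.84 for 32OE minus 32null (95% interval -1.71 to 0.03, limma's adjusted p = 0.49). For 32OE minus Col it was -0.41, and it was 0.08 without the 32OE array numbered 1. CYP71B27, which RefSeq lists as a transcribed pseudogene, had signals from 0.412 to 8.50.

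CYP71B5 (AT3G53280) and CYP71B31 lie near each other at another place on chromosome 3. CYP71B5 had 21.3, 63.6 and 63.3 on the 32OE arrays and 50.1, 54.0 and 51.4 on the 32null arrays, against 27.2, 34.7 and 26.9 on the Col arrays. All 32null arrays and the 32OE arrays numbered 2 and 3 were above Col, while the 32OE array numbered 1 was below every Col array. The mean of 51.8 ± 2.01 in 32null stood against 29.6 ± 4.45 in Col, a log2 fold change of 0.75 (95% interval 0.06 to 1.43, limma's adjusted p = 0.252). For 32OE minus Col the log2 fold change was 0.54 (95% interval -0.14 to 1.23, limma's adjusted p = 0.377), and without the 32OE array numbered 1 it was 1.02 (limma's adjusted p = 0.00419). That array also enters the shared estimate of spread, and without it limma's adjusted p for 32null minus Col was 0.0258. CYP71B31, which in flowers takes part in the oxidation of the monoterpene linalool, had signals from 0.159 to 5.24.

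CYP71B6 (AT2G24180) oxidises indole-3-acetonitrile, an intermediate of indolic defence metabolism. It was the 1 tested gene of 18 entries in the list of glucosinolate and indolic defence P450 genes. Its signals were 110, 153 and 140.2 in 32OE and 128, 173 and 140.3 in 32null, against 103, 121 and 119 in Col. The 32null arrays were all above Col, and the 32OE array numbered 1 lay within the Col range. The log2 fold change was 0.22 for 32OE minus Col (95% interval -0.12 to 0.55, limma's adjusted p = 0.474) and 0.35 for 32null minus Col (95% interval 0.01 to 0.68, limma's adjusted p = 0.272). Of the 9 tested members, 5 were higher in 32null than in Col without overlap, CYP71B5, CYP71B6, CYP71B22, CYP71B29 and CYP71B34, where 13% of all tested probe sets were. CYP71B29 would not have passed the filter without its 32null arrays, so its place in this count is in part set by the filter. None of the 9 was lower than Col without overlap in 32OE or 32null, where 9.72% and 11.5% of all tested probe sets were.

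**Figure D4:**
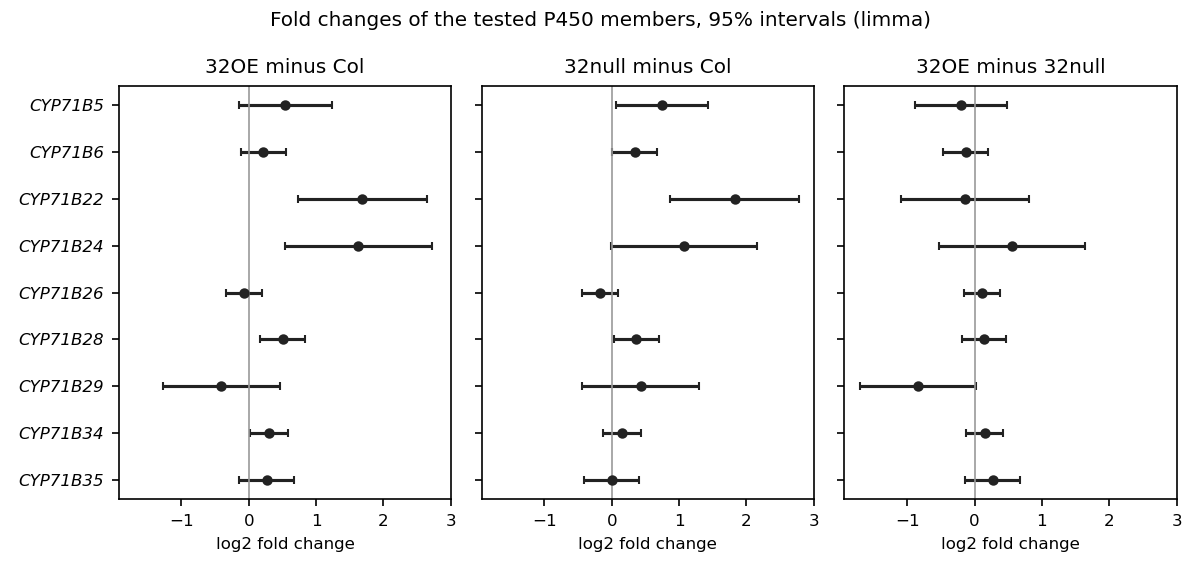
Log2 fold changes of the 9 tested P450 members with 95% intervals from limma for 32OE minus Col, 32null minus Col and 32OE minus 32null. The interval of CYP71B22 lies above 0 against Col in both lines, from 0.73 to 2.64 and from 0.87 to 2.78. That of CYP71B28 does too, from 0.17 to 0.84 and from 0.03 to 0.70. No interval in the panel of 32OE minus 32null excludes 0.

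The array numbered 1 of 32OE was the lowest of its group in 7 of the 9 tested members. The exceptions were CYP71B26 and CYP71B28, in which it was the highest. In 32null the array numbered 1 was the lowest in 4 members and the highest in 4. The median within-group SD of the 9 members was 0.22 on the log2 scale, against 0.20 over all tested probe sets.

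The 13 members below the filter had signals from 0.159 to 50.5, and 11 of them did not reach 17.6 on any array. For these the arrays allow no statement about absence of the transcript, only that it gave no higher signal. CYP79A2 (AT5G05260), which converts phenylalanine to its oxime on the way to benzylglucosinolate, had 0.655, 0.538 and 0.235 in 32OE and 0.344, 1.55 and 2.68 in 32null, against 0.706, 0.542 and 0.398 in Col. CYP84A4 (AT5G04330), an enzyme of arabidopyrone synthesis, had 10.1, 9.17 and 12.2 in 32OE and 6.76, 17.9 and 12.1 in 32null, against 4.82, 19.4 and 12.7 in Col. In both genes the groups overlapped. CYP51G2 (AT2G17330), a relative of the sterol demethylase gene CYP51G1 that RefSeq lists as a transcribed pseudogene, had signals from 5.20 to 9.95.

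CYP78A9 (AT3G61880), of a subfamily that promotes the growth of fruits, seeds and other organs, had 10.3, 5.79 and 2.15 in 32OE and 2.55, 2.78 and 6.88 in 32null, against 14.8, 7.61 and 16.6 in Col. The 32null arrays were all below the Col arrays, and 32OE overlapped with Col. All of these signals lie below the filter, and in a fit without it 32null minus Col was not called (limma's adjusted p = 0.271). Over all 22 members, 3 were higher in 32OE than in Col without overlap and none lower, where 9.57% and 8.2% of all probe sets were. For 32null against Col, 7 were higher and 1 lower, where 10.7% and 8.73% of all probe sets were. CYP71B25 was the other member below the filter that was higher in 32null, with 6.52, 4.13 and 6.21 in 32null against 0.335, 2.69 and 2.97 in Col. CYP71B38 was lower in 32OE than in 32null without overlap, with 0.40, 4.42 and 3.44 in 32OE against 8.47, 8.36 and 8.22 in 32null, where 7.66% of all probe sets were lower without overlap.

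**Figure D5:**
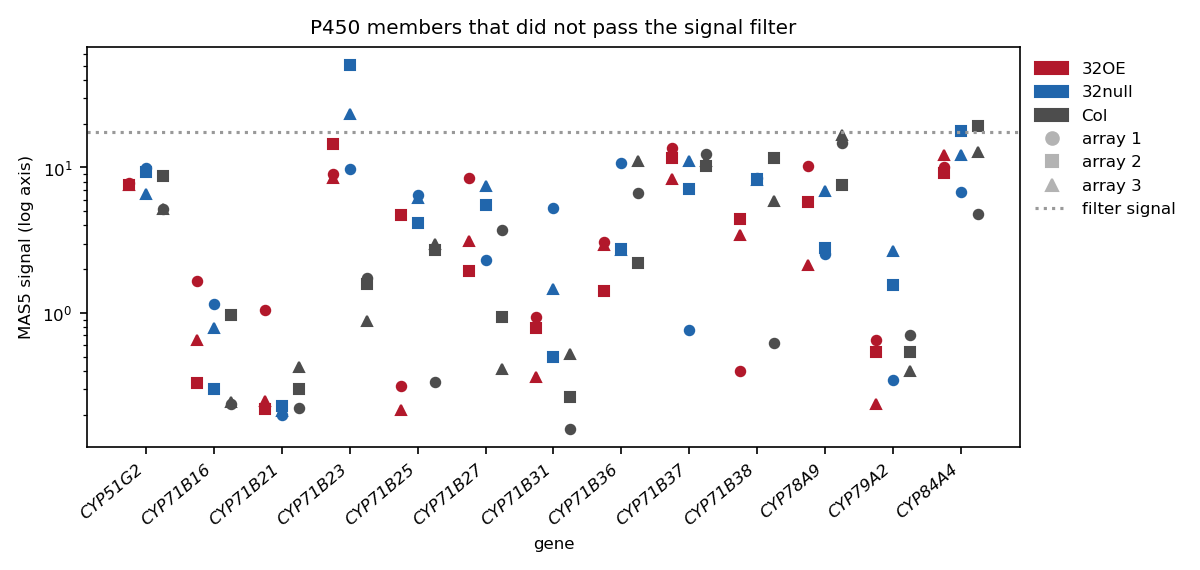
MAS5 signal (log axis) of the 13 P450 members that did not pass the filter, on each array of 32OE, 32null and Col, with the filter signal of 17.6 as a dotted line. CYP71B23 is the gene in which all 6 arrays of the lines lie above the 3 Col arrays, and CYP78A9 the one in which all 32null arrays lie below them.

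The P450 lists were sought only among probe sets with a single listed gene. Those for brassinosteroid, gibberellin, abscisic acid, cytokinin, jasmonate and strigolactone metabolism had no entry there. Neither had those for cutin, suberin and wax, for carotenoids and for stress and chlorophyll breakdown. The lists for phenylpropanoids, sterols, organ growth and terpenoids had 1 entry each, CYP84A4, CYP51G2, CYP78A9 and CYP71B31, none of which passed the filter. None of the 12 P450 redox partners or the 15 other brassinosteroid genes sought had a probe set with a single listed gene. Among symbols outside the rule, the pseudogene CYP71B30P had signals from 0.231 to 1.29 and the P450 gene CYP718 from 0.532 to 1.22. A probe set listing 2 genes, with a symbol beginning CYP and a digit among them, had 90.5 to 140 in 32OE, 126 to 184 in 32null and 132 to 146 in Col. Another of this kind had 5.12 to 6.59 in 32OE, 0.707 to 6.74 in 32null and 0.797 to 1.19 in Col, below the filter signal on every array. Neither is a member.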

How the data were processed

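Leaf RNA was labelled with biotin (one-cycle protocol) and hybridised to 1-colour arrays, per the labels' protocols. The deposited intensity values are MAS5 signals made in GCOS, per the submitters' processing notes. Other settings are not given in the sources used here. A common scaling shows in the values: with 2% trimmed from either end, every array has a mean of 100.011, and medians ran from 33.1 to 35.7. Such scaling makes each change relative to the rest of the array. Detection calls were not used. Precision is limited by the 3 arrays in each group.

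Groups and replicate numbers came from the labels. Nothing says that replicates are separate plants, so p-values reflect only variation among these samples, part of which may be technical. Within-group correlations of log2 signals lay between 0.969 and 0.982.

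Gene names came from the platform annotation, in which 8794 probe sets have no gene and 503 have several; all 22 members matched a RefSeq gene of TAIR10.1. A pseudocount of 3.63, the table's 20th percentile, was added before taking log2. After 64 control probe sets were left out, 14151 passed the filter. limma 3.58.1 in R 4.3.3 was fitted to all 9 arrays, with a mean for each of the 3 groups, an intensity trend and 6 residual degrees of freedom. Tests were two-sided. On simulated data for 32OE minus Col with 14151 probe sets, the fit called 84 of the 100 true 2-fold changes, 100 of the 100 true 4-fold changes and 0 unchanged probe sets. The same figures were 87, 100 and 10 for 32null minus Col, and 85, 100 and 7 for 32OE minus 32null. Whether the spread behind these counts matched that of single members was not tested. The counts therefore do not give the size of change that could be missed in a member. CYP71B22 had ratios of means of 3.55 for 32OE over Col and 4.06 for 32null over Col. Its SE was 0.44 in both, and neither difference was called. Plots used matplotlib 3.10.9 (Python 3.11.15).

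The members, lists and alternatives were chosen with earlier results of these data known. Members were named in full if called, if among the 8 highest or 8 lowest by p of those whose groups did not overlap, or if among the 3 of a list with the smallest F-test p. The others are given because every member is accounted for. Alternatives covered the pseudocount, the filter, normalization, the variance model, array weights, the groups fitted, the replicate number as a block, the probe set type and left-out arrays.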

Additional observations from a re-analysis of the deposited data

How the results depend on the processing

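The count of 0 called members held under the pseudocounts of 1 and 16, no filter, the 60th percentile filter, quantile normalization, median centring, no intensity trend and without probe sets of the _s_at and _x_at types, in all 3 comparisons and the F-test. At most 1.84% of all probe sets were called in any of these fits. For 32OE minus 32null the count was 0 under all 21 alternatives, where 0.17% to 2.64% of all probe sets were called. At these shares a count of 0 does not set the members apart from all probe sets. With array quality weights, 5 members were called for 32OE minus Col, 1 for 32null minus Col and 5 by the F-test. In a fit of the compared groups alone, 1 and 2 were called against Col, where 1.73% and 1.86% of all probe sets were. Leaving out 1 array gave 0 to 3 for 32OE minus Col, 0 to 2 for 32null minus Col and 0 to 3 by the F-test; the counts above 0 came without the 32OE or the 32null array numbered 1. Without the 32OE array, 12.6%, 3.47% and 10.2% of all probe sets were called in these 3 tests, and without the 32null array 2.59%, 1.64% and 2.87%. CYP71B24 was among the 3 members called without the 32OE array for 32OE minus Col and by the F-test. With every array numbered 1 left out, the counts were 4, 3 and 3.

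With the replicate number as a block, CYP71B22 was the 1 member called for 32OE minus Col (limma's adjusted p = 0.000786), for 32null minus Col (limma's adjusted p = 0.00217) and by the F-test, and 0 were called for 32OE minus 32null. Of all probe sets, 5.44%, 3.26%, 6.14% and 1.32% were called in these tests, against 1.61%, 0.0565%, 1.16% and 0.523% without the block. The labels do not say that a number marks a shared batch. Correlations of same-numbered arrays' deviations were 0.32, 0.096 and 0.17 for 32OE with Col and -0.007, -0.10 and -0.13 for 32null with Col. For 32OE with 32null they were 0.37, 0.064 and 0.093. The own number gave the best correlation only for the 32OE arrays numbered 1 and 3 with Col and the 32OE array numbered 1 with 32null. No 32null array correlated best with the Col array of its own number.

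Several small fold changes changed sign, none of them called. With array weights, CYP71B22 had 0.017 and CYP71B5 0.12 for 32OE minus 32null, and CYP71B35 had 0.044 for 32null minus Col. With 1 array left out, 32OE minus 32null ran from -0.64 to 0.30 for CYP71B22, -0.0056 to 0.21 for CYP71B28, -0.44 to 0.27 for CYP71B5 and -0.23 to 0.0048 for CYP71B6. In the same way, 32OE minus Col ran from -0.81 to 0.08 for CYP71B29, and 32null minus Col from -0.14 to 0.16 for CYP71B35. With every array numbered 1 left out, CYP71B5 had 0.25 for 32OE minus 32null, CYP71B29 had 0.15 for 32OE minus Col and CYP71B35 had 0.10 for 32null minus Col. The cause was not tested. The median log2 fold change of the members moved to 0.13 for 32OE minus Col and -0.12 for 32OE minus 32null with no filter, where all 22 members enter. It moved to 0.50 for 32OE minus Col without every array numbered 1, and to 0.26 for 32OE minus 32null without the 32OE array numbered 1.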
